A study of Homo sapiens with 6 samples.

Results

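The peroxiredoxins and their companion antioxidant enzymes were followed through ribosome profiling of HEK293, a human embryonic kidney cell line. The members were chosen by symbol: PRDX1, PRDX2, PRDX3, PRDX4, PRDX5 and PRDX6, thioredoxin (TXN), the superoxide dismutases SOD1 and SOD2, and catalase (CAT). All 10 genes were among the 8121 with a translational efficiency, and 9 of them were among the 9570 transcripts with a ribosome occupancy profile. The occupancy of SOD2 was not analysed here. The study sequenced ribosome-protected fragments (RPFs) and total RNA from the same lysates, with 3 libraries of each. Per the labels, every library came from HEK293 cells given control siRNA, which the profiling methods do not mention, so no comparison of treatments enters what follows. The living cells were treated with cycloheximide, an inhibitor of elongation, before lysis, and it was kept in the lysis buffer. Translational efficiency (TE) is taken here as the RPF level of a gene divided by its total RNA level, with 1 value for each numbered replicate. The labels do not say whether the replicates were separate cultures. The profiling methods state that the work was done in triplicate, without saying whether from separate cultures. The p-values below thus measure the spread between these 3 values, which may be technical.

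Peroxiredoxins are thiol peroxidases that reduce hydrogen peroxide with a reactive cysteine and are then reset, mostly by thioredoxin. Superoxide dismutases make that hydrogen peroxide from superoxide, with SOD1 in the cytosol and SOD2 in the mitochondrial matrix. Catalase breaks hydrogen peroxide down in peroxisomes. PRDX1, PRDX2 and PRDX6 are mainly cytosolic, PRDX3 is mitochondrial, PRDX4 enters the secretory pathway behind a signal peptide, and PRDX5 has a mitochondrial form with a targeting sequence and a shorter form without it.

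Most of these mRNAs had a TE far above that of the typical gene. CAT and PRDX4 lay near the upper quartile of all genes, SOD2 near the median and PRDX5 below it. Over all genes and replicates the median TE was 0.383, and the middle range of genes, from the lower to the upper quartile, ran from 0.198 to 0.825. The median TE of the 10 antioxidant enzyme genes was 1.95, and 5 of them lay above the 90th percentile of all genes. In limma's test of each gene against the median, with Benjamini-Hochberg adjustment over all 8121 genes, 8 of the 10 were higher, 1 was lower and 1 was not called at an adjusted p of 0.05. The same test called 89.3% of all genes in either direction, 44.7% as higher and 44.6% as lower, because the replicates were close to each other, so the call alone says little and the size of each difference is given below.

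**Figure D1:**
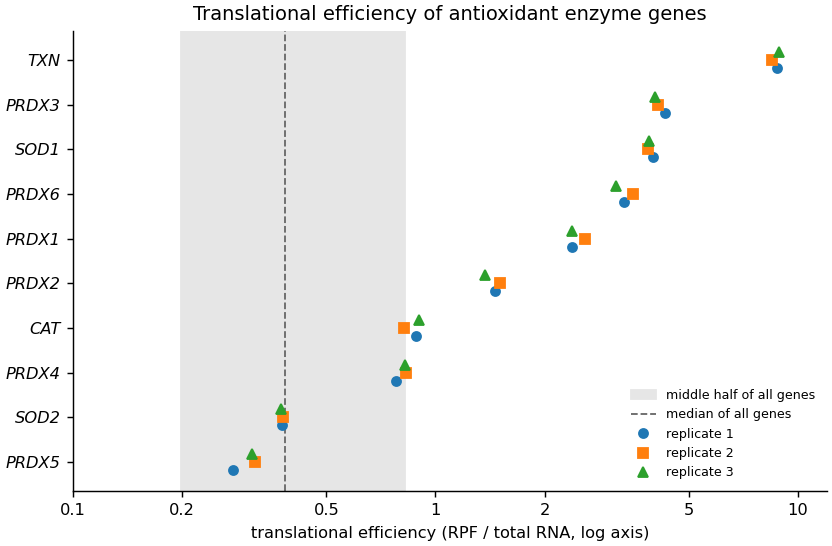
Translational efficiency (RPF over total RNA, log axis) of the 10 antioxidant enzyme genes in each of the 3 replicates, with the median of all genes as a dashed line and the range between the quartiles of all genes in grey. The replicates of TXN lie between 8.50 and 8.85, those of SOD2 sit on the median, and those of PRDX5 lie below it.

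Among the typical 2-Cys peroxiredoxins, which form an intermolecular disulphide when they reduce peroxide, TE followed the order PRDX3, PRDX1, PRDX2, PRDX4. PRDX1, the abundant cytosolic member, had TE values of 2.39, 2.59 and 2.38 in replicates 1, 2 and 3, a mean of 2.45 ± 0.116 (SD, n = 3). This was 2.65 above the median on the log2 scale (SE 0.0533, limma adjusted p = 1.70e-06). PRDX2, its closest relative and the main peroxiredoxin of red cells, had values of 1.46, 1.51 and 1.37, with a log2 difference of 1.89 from the median (SE 0.0538, limma adjusted p = 3.84e-06). The lowest PRDX1 replicate thus stood above the highest PRDX2 replicate. PRDX3, which works in the mitochondrial matrix, had 4.30, 4.11 and 4.04, or 3.40 above the median on the log2 scale (SE 0.05002, limma adjusted p = 1.18e-06). PRDX4, the endoplasmic reticulum member, had 0.781, 0.829 and 0.826, a log2 difference of 1.06 (SE 0.0503, limma adjusted p = 1.85e-05). Its replicates lay around the upper quartile of all genes, the lowest TE of these 4 relatives.

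PRDX5, an atypical 2-Cys enzyme that closes its disulphide within 1 molecule, was the only member called lower. Its TE was 0.276, 0.318 and 0.311, a log2 difference of -0.34 from the median (SE 0.0611, limma adjusted p = 0.00384). All of its replicates were below the median, and its mean stood at the 40.3rd percentile of all genes. PRDX6, the 1-Cys enzyme that also carries a phospholipase activity, had a TE of 3.31, 3.50 and 3.15, a log2 difference of 3.08 (SE 0.0548, limma adjusted p = 1.44e-06). The mean log2 ratio of PRDX6 to PRDX5 within replicates was 3.46 ± 0.122 (SD, n = 3), or 11.02-fold on the TE scale. The mean log2 ratio of PRDX3 to PRDX5, the pair with mitochondrial forms, was 3.78 ± 0.151 (SD, n = 3), or 13.8-fold.

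TXN, the small dithiol protein that resets peroxiredoxins, had the highest TE of the 10. Its values were 8.73, 8.50 and 8.85, a log2 difference of 4.47 from the median (SE 0.0483, limma adjusted p = 8.99e-07), which placed it at the 98.7th percentile. Its mean was 2.09 times that of PRDX3, the next gene in the order.

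The superoxide dismutases stood far apart. SOD1, the copper and zinc enzyme, had 3.97, 3.86 and 3.89, a log2 difference of 3.32 (SE 0.0477, limma adjusted p = 1.14e-06). SOD2, the manganese enzyme, had 0.377, 0.379 and 0.374, a log2 difference of -0.02 (SE 0.0472, limma adjusted p = 0.641). SOD2 thus lay within error of the median, at the 49.2nd percentile, and was called lower in 2 of the alternative analyses given at the end. Within replicates SOD1 exceeded SOD2 by 3.40, 3.35 and 3.38 on the log2 scale, a mean of 10.4-fold. CAT had 0.883, 0.820 and 0.902, a log2 difference of 1.16 (SE 0.0540, limma adjusted p = 1.76e-05), close to PRDX4.

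In order of mean TE the genes ran TXN, PRDX3, SOD1, PRDX6, PRDX1, PRDX2, CAT, PRDX4, SOD2 and PRDX5. CAT and PRDX4 were the only neighbours whose replicate ranges overlapped. PRDX3 and SOD1 came nearest after them, the lowest PRDX3 replicate being 4.04 and the highest SOD1 replicate 3.97. Pairs of genes were set side by side by their replicate ranges and within-replicate ratios only, and the differences between genes were not tested.

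Some of these mRNAs share sequence with processed pseudogenes, which could divert or add reads when footprints are assigned. Of the 28-base stretches of the coding sequence (CDS), 43.3% in TXN, 26.2% in PRDX3, 24.2% in PRDX2, 18.2% in PRDX1 and 17.3% in PRDX6 were also present in the annotated transcript of another gene. The shares were 2.97% in SOD1 and 2.59% in PRDX5, and 0 in PRDX4, SOD2 and CAT. None of the 10 shared such a stretch with another coding gene. The 4 genes with the lowest TE, CAT, PRDX4, SOD2 and PRDX5, shared at most 2.59%, and of the 6 with the highest TE all but SOD1 shared 17.3% or more. The part of shared sequence in the TE values was not tested.

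The bases around the start codons of 9 of the genes are shown because the scanning ribosomal subunit selects the start codon in this context, and TE differed widely among these genes. They were read from GRCh37 transcripts of GENCODE 44, each 20 bases long, with the base 3 before the start codon, the ATG and the base after it in capitals.
PRDX1 (chr1:45984705-45984724, minus strand, exon 2): gataggAagATGTcttcagg
PRDX2 (chr19:12912065-12912084, minus strand, exon 2): ctttcaGtcATGGcctccgg
PRDX3 (chr10:120938292-120938311, minus strand, exon 1): gcactgAagATGGcggctgc
PRDX4 (chrX:23685679-23685698, plus strand, exon 1): cgcgtgGtcATGGaggcgct
PRDX5 (chr11:64085679-64085698, plus strand, exon 1): ggggcgGgtATGGgactagc
PRDX6 (chr1:173446528-173446547, plus strand, exon 1): accgtcGccATGCccggagg
TXN (chr9:113018705-113018724, minus strand, exon 1): gcagccAagATGGtgaagca
SOD2 (chr6:160114189-160114208, minus strand, exon 1): actagcAgcATGTtgagccg
CAT (chr11:34460552-34460571, plus strand, exon 1): ccgcacGctATGGctgacag
All 9 had A or G at the position 3 bases before the ATG, as had 85.8% of the 8243 transcripts whose start context could be read. A G directly after the ATG was present in 6 of the 9 and in 53.4% of those transcripts. The form GNNATGG occurred in PRDX2, PRDX4, PRDX5 and CAT and in 23.2% of transcripts, and ANNATGG in PRDX3 and TXN and in 23.0%. The ANNATGG genes, TXN and PRDX3, had the highest TE values of the 10, at 8.69 ± 0.176 and 4.15 ± 0.133 (SD, n = 3). The 4 GNNATGG genes ran from 1.45 ± 0.0702 in PRDX2 to 0.302 ± 0.0222 in PRDX5. PRDX6 and PRDX1, without a G after the ATG, had 3.32 ± 0.174 and 2.45 ± 0.116, above every GNNATGG gene among the 9. SOD2, also without that G, had 0.377 ± 0.00243. The context of SOD1, which had a mean TE of 3.91, is not among the 9. The part of the start context in TE was not tested. Only the transcript strand was searched.

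Genes of the wider redox network lay on both sides of the median TE, and their difference from the 10 enzymes was not tested. In 7 lists of related genes, 63 of 72 were in the TE table, and 27 of these were higher than the median, 27 lower and 9 not called in limma's test, beside 44.7% higher and 44.6% lower among all genes. Their median TE was 0.414, against 0.385 over all genes and 1.95 for the 10 enzymes. The lists were chosen with earlier results of these data known.

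In the thioredoxin system, 4 of 10 genes were higher and 5 lower. The highest were TXNL1, a thioredoxin-like protein of the proteasome, with a TE of 2.86 ± 0.0764 (SD, n = 3), and TXNDC17, a cytosolic thioredoxin-related protein, with 1.49 ± 0.0615. The lowest 3 were SRXN1, TXNRD1 and TXNRD2. TXNRD1, the cytosolic reductase that recharges TXN, had a TE of 0.111, 0.120 and 0.107 in the 3 replicates, against 8.50 to 8.85 for TXN. SRXN1, sulfiredoxin, a reductase that repairs overoxidised peroxiredoxins, had 0.0853, 0.116 and 0.120. TXNRD2, the mitochondrial reductase that recharges TXN2, had a mean of 0.2498 ± 0.0191 (SD, n = 3). All 3 were called lower.

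In the glutathione system, 8 of 17 genes were higher and 6 lower. GLRX3, a glutaredoxin that handles iron-sulphur clusters, and GCLM, the modifier subunit of the enzyme that starts glutathione synthesis, had mean TE values of 3.05 ± 0.277 and 2.54 ± 0.167 (SD, n = 3). GSS, glutathione synthetase, had the lowest at 0.105 ± 0.00918, and GSR, which recycles oxidised glutathione, had 0.211 ± 0.0152. GSS and GSR were called lower, GLRX3 and GCLM higher. Among genes of superoxide and copper handling, 2 of 5 were higher and 2 lower. The copper importer SLC31A1 had 3.02 ± 0.0828 and the copper chaperone ATOX1 1.76 ± 0.0690, while CCS, the chaperone that loads copper into SOD1, had 0.149, 0.170 and 0.190. SOD1 and its own chaperone therefore lay on opposite sides of the median.

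Of the genes of NRF2 control and NADPH supply, 5 of 13 were higher and 6 lower. ME1, malic enzyme, had a TE of 2.84 ± 0.192 (SD, n = 3) and PGD, of the pentose phosphate pathway, had 0.836 ± 0.0277. KEAP1, the repressor of NRF2, had 0.114 ± 0.000784. For oxidative folding in the endoplasmic reticulum 5 of 9 were higher and 3 lower, from PDIA3, a disulphide isomerase, at 3.95 ± 0.0788 to the oxidase ERO1B at 0.144, 0.239 and 0.338, whose replicates were widely spread. Of 6 peroxisome genes that accompany CAT, 1 was higher and 4 lower. PEX5, the receptor that brings CAT into peroxisomes, had 0.0818 ± 0.00749, the lowest of the 63. Of 3 methionine sulfoxide reductases 2 were higher, MSRB1 at 0.998 ± 0.168 and MSRB2 at 0.573 ± 0.178, and MSRB3 at 0.204 ± 0.0196 was lower.

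**Figure D2:**
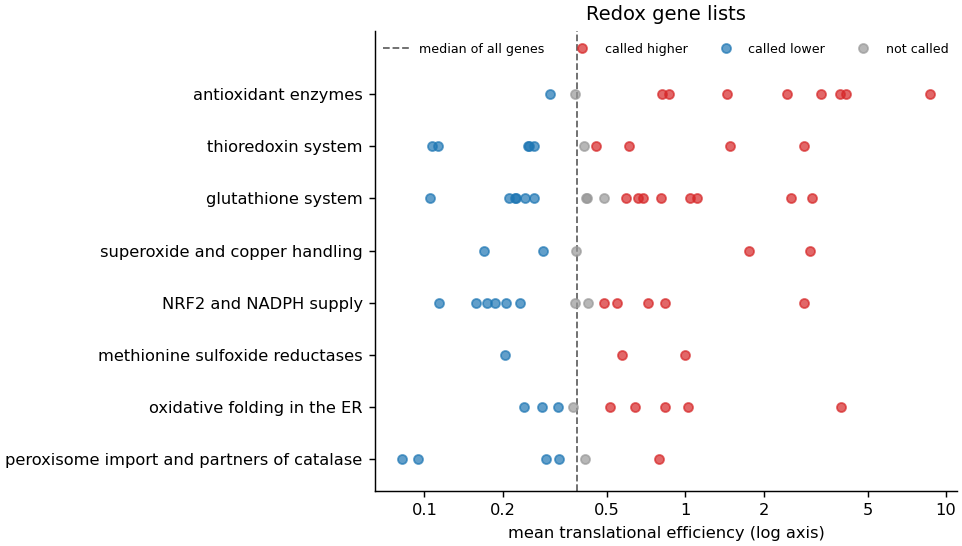
Mean TE (log axis) of every measured gene in the antioxidant enzyme set and the 7 redox lists, with the median of all genes as a dashed line and colours for limma's call at an adjusted p of 0.05. The 10 antioxidant enzymes reach from 0.302 to 8.69, while the other lists are spread over both sides of the median.

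Ribosome occupancy gave a view by codon of 9 of the mRNAs, from the same RPF and total RNA libraries as TE. It is the number of in-frame RPFs at each codon, scaled to library size and divided by the transcript's TPM in total RNA, with the replicates combined into 1 profile, so it has no replicate error. The mean over the CDS was highest for TXN at 0.172, followed by PRDX1 at 0.136, SOD1 at 0.129, PRDX3 at 0.0978, PRDX6 at 0.0895 and PRDX2 at 0.0757. These 6 were also the 6 with the highest TE, but the measures are not independent, as they share these libraries. CAT at 0.0442 and PRDX4 at 0.0416 lay just below the median transcript at 0.0450, and PRDX5 at 0.0168 was at the 13.9th percentile of the 9570. PRDX1 and PRDX3 changed places between the measures, PRDX1 having 0.591 times the TE of PRDX3 and 1.39 times its mean occupancy.

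**Figure D3:**
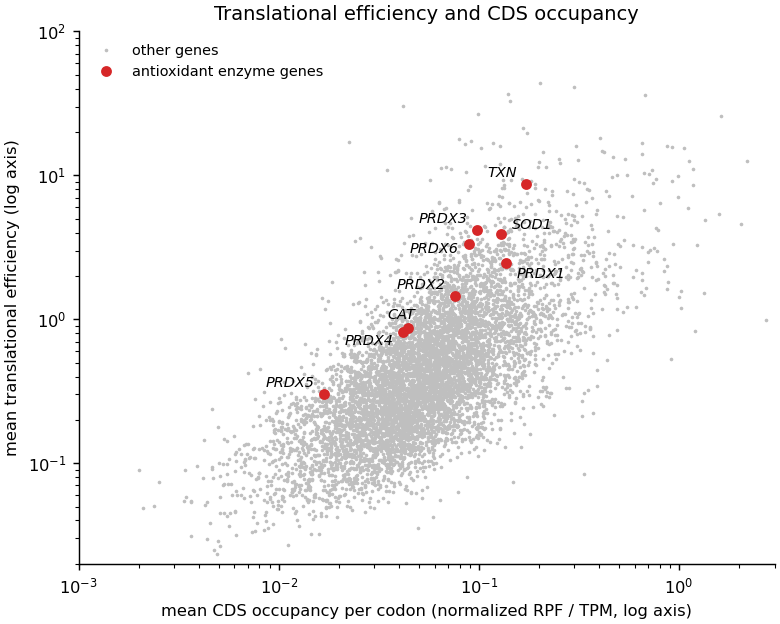
Mean TE against mean CDS occupancy per codon, both on log axes, for the 6912 genes with both values (grey) and the 9 antioxidant enzyme genes (red). The 9 lie along the upper side of the cloud, with TXN highest and PRDX5 lowest on both axes.

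Relative to their occupancy, all 9 had a high TE. The ratio of mean TE to mean occupancy ran from 18.0 in PRDX5 to 50.5 in TXN, against a median of 7.72 and an upper quartile of 13.3 over the 6912 genes with both. The ratio was 42.4 in PRDX3, 37.1 in PRDX6 and 30.3 in SOD1, and between 18.0 and 19.7 in the others. TE is taken over a gene and occupancy over the in-frame codons of 1 transcript, and the reason for the gap was not tested.

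The occupancy values also hold the depth behind each profile. In each transcript the low values are sums of whole multiples of 3 steps, each the worth of a read in 1 replicate, so approximate read numbers and the relative abundance of the mRNA could be recovered. The CDS of PRDX1 held about 175085 in-frame reads, TXN 66448, SOD1 59815, PRDX3 31312, PRDX6 26201, PRDX2 21302, PRDX4 20663, CAT 3366 and PRDX5 2369. The median transcript held 1839. Profiles of CAT and PRDX5 are thus far coarser than that of PRDX1, with 194 of 528 and 66 of 215 codons at 0, against 6 of 200 in PRDX1. The same steps gave an mRNA abundance of 70.1 times the median transcript for PRDX1, 39.4 for TXN, 32.5 for SOD1, 19.9 for PRDX4, 15.3 for PRDX2, 14.1 for PRDX6, 13.5 for PRDX3, 7.07 for PRDX5 and 1.56 for CAT. PRDX4 thus had more mRNA than PRDX3 and a lower TE in every replicate, and CAT had nearly the same TE as PRDX4 from much less mRNA.

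Along the CDS, occupancy was lower early than late in most of these mRNAs, and the size of the gap depended on the window. The mean occupancy of the first 75 codons divided by that of the last 75 was 0.179 in PRDX4, 0.199 in PRDX5 and 0.408 in PRDX3, with CAT at 0.397. It was 0.792 in PRDX1, 0.829 in PRDX6 and 0.874 in SOD1, 1.38 in TXN, whose CDS is so short that the windows overlap, and 1.73 in PRDX2. The median of 8851 transcripts of at least 150 codons was 0.991, and PRDX4 and PRDX5 lay at the 6.29th and 7.25th percentiles of these. CAT was at the 16.9th percentile, PRDX3 at the 17.5th and PRDX2 at the 75.3rd. PRDX1, PRDX6 and SOD1 were not far from the median transcript, at the 40.3rd, 42.1st and 44.5th. With windows of 30 codons the order changed, to 0.191 in CAT, 0.417 in PRDX5, 0.471 in PRDX1, 0.528 in PRDX2, 0.552 in PRDX3, 0.553 in PRDX4, 0.653 in SOD1, 1.16 in PRDX6 and 3.46 in TXN.

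**Figure D4:**
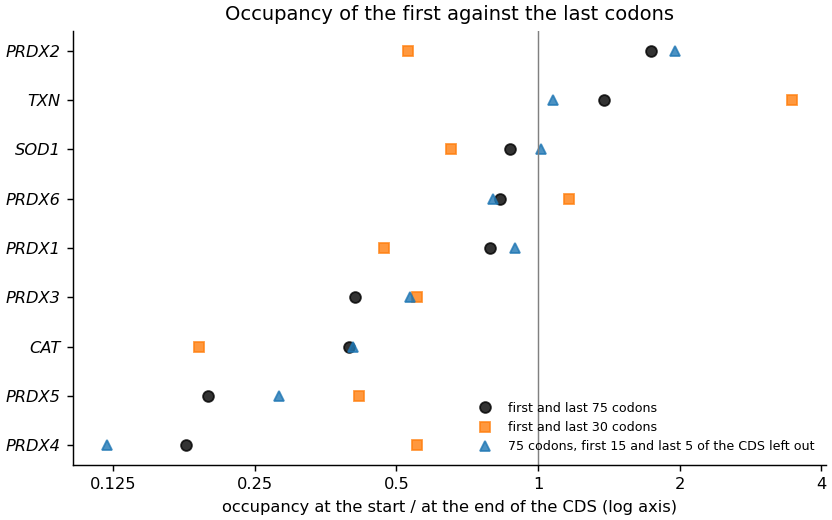
Ratio of the mean occupancy at the start of the CDS to that at the end (log axis) in 9 antioxidant enzyme mRNAs, for windows of 75 codons, of 30 codons, and of 75 codons after the CDS ends were left out. PRDX1, PRDX3, PRDX4, PRDX5 and CAT are below 1 under all 3 windows, TXN is above it, and PRDX2, PRDX6 and SOD1 have values on both sides.

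PRDX5 has a second in-frame ATG at codon 53, near where the shorter form of the protein begins. The 52 codons before it held about 222 of the CDS reads and the codons from it on held 2148, a mean occupancy of 0.00645 against 0.0202. Other members also had a lower mean before their second in-frame ATG. The ratio of the means before and from that ATG was 0.319 in PRDX5, 0.181 in PRDX1, 0.373 in CAT, 0.476 in PRDX3, 0.797 in PRDX6 and 1.09 in TXN. The stretches before it were unequal, at 20 codons in PRDX1, 11 in CAT with about 26 reads, 155 in PRDX3, 115 in PRDX6 and 36 in TXN, so these ratios are side by side only. Codon 53 itself was at 0 and the low occupancy ran on past it, with codon 79 at 7.60 times the CDS mean. With the PRDX5 CDS cut into 5 equal parts, these stood in order at 0.389, 0.469, 0.757, 2.24 and 1.18 of the CDS mean. In PRDX4 the first of 5 parts was at 0.356 of its mean and the fourth at 1.62. Where translation of either mRNA began was not tested.

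Occupancy at the start codon differed as widely. Over all transcripts the start codon had a median of 0.286 times the CDS mean of its own transcript, and a mean of 2.49 times. PRDX6 had 4.88 times its CDS mean at the start codon, PRDX3 2.35, CAT 1.85, PRDX1 1.47, TXN 1.28, PRDX4 1.19 and PRDX2 1.102. These 7 stood between the 65.6th percentile, in PRDX2, and the 86.3rd, in PRDX6. PRDX5 had 0.142, at the 45.1st percentile. SOD1 was the lowest of the 9, with an occupancy of 0.00258 at the start codon beside a CDS mean of 0.129, which was at the 40.6th percentile of all transcripts. Its codon 2 had 2.45 times the CDS mean.

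In-frame RPFs in the 5′UTR were sparse. The mean 5′UTR occupancy was 8.75% of the CDS mean in PRDX4, 4.92% in PRDX1, 3.14% in CAT, 2.34% in PRDX2, 1.38% in TXN, 0.614% in PRDX6, 0.584% in SOD1 and 0.364% in PRDX5, against a median of 2.86% over all transcripts. PRDX3 had no read in its 21 5′UTR codons, beside about 31312 in the CDS. The GENCODE transcript used for its start sequence has only 7 codons before the start codon. These lengths were 24 against 65 codons in TXN and 26 against 11 in PRDX4, while CAT had 26 in both. The 5′UTR means thus depend on the transcript taken. In PRDX1 the codon just before the start codon held 70.6% of the 5′UTR signal, and without it the 5′UTR mean was 1.49% of the CDS. In PRDX4, with about 76 reads in 11 codons, that codon held 55.3%, and without it the mean was 4.30%. Of the 15 codons before the start codon, 14 were occupied in both PRDX1 and TXN, at a mean of 11.6% and 4.75% of the CDS. These means include the codon just before the start codon, with an occupancy of 0.175 in PRDX1 and 0.00686 in TXN. The higher mean of PRDX1 thus rests largely on that codon. In TXN the codon just before the start codon held 4.46% of the 5′UTR signal. The values for CAT, PRDX5 and PRDX6 rest on about 5, 2 and 10 reads. Only the frame of the CDS was counted, so translation in the other frames of the 5′UTR was not measured. The 3′UTRs held at most 111 reads, in PRDX1, or 0.0628% of the reads on that mRNA.

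Footprints were concentrated on a few codons in every profile, as they were across transcripts. The 10% of codons with the highest values held from 47.2% of CDS occupancy in PRDX1 to 62.8% in PRDX2, with a median of 59.7% over all transcripts. The highest single codon reached 23.7 times the CDS mean in PRDX4, 21.7 in PRDX2 and 20.0 in PRDX6. PRDX1, at the 3.02nd percentile of all transcripts for this share, was among the most evenly covered. It was also among the deepest, with about 175085 CDS reads against 1839 in the median transcript. The part of read depth in this share was not tested.

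**Figure D5:**
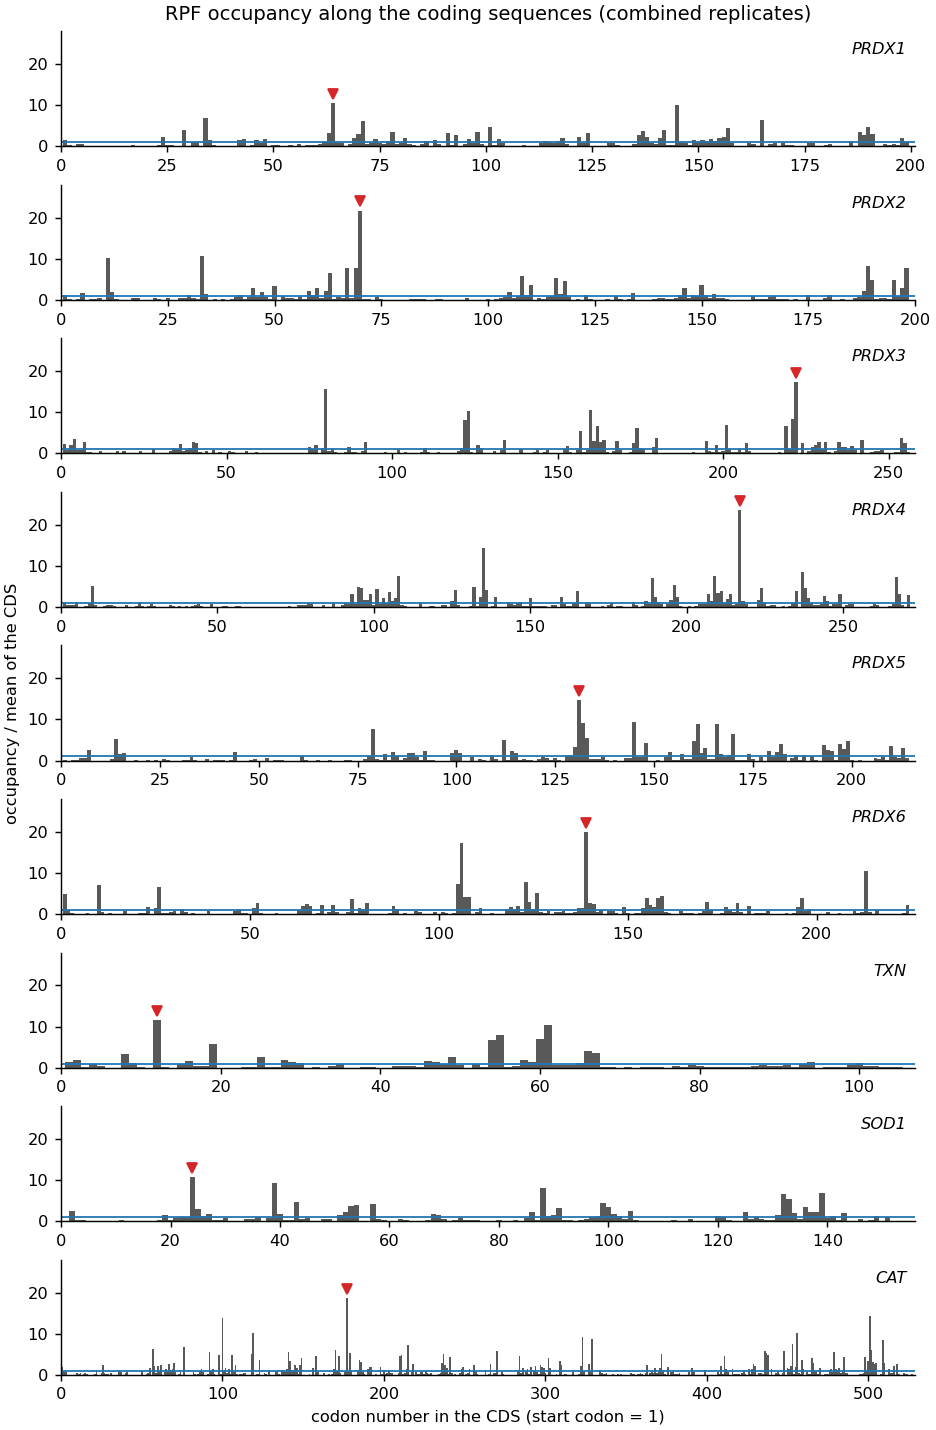
RPF occupancy at each codon of 9 antioxidant enzyme CDSs, relative to the mean of the same CDS (blue line at 1), against codon number, replicates combined. The red triangle marks the highest codon, which reaches 23.7 times the mean at codon 217 of PRDX4 and 10.5 times at codon 64 of PRDX1.

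The sequences of the highest codons of 8 mRNAs are shown so that the tallest peaks of the profiles can be placed. Each window has 9 codons, with the highest codon and the codon after it in capitals, and is read 5′ to 3′ from the GENCODE 44 transcript on GRCh37. The first and last codons of each CDS (15 and 5) were left out of the search, except in the first TXN sequence, which is the highest of its whole CDS.
PRDX1 codons 64 and 65 (chr1:45981379-45981405, minus strand, exon 3): gatagggcaGAAGAAtttaagaaactc
PRDX2 codons 70 and 71 (chr19:12911762-12911788, minus strand, exon 3): aagctgggcTGTGAAgtgctgggcgtc
PRDX3 codons 222 and 223 (chr10:120928725-120928751, minus strand, exon 6): ttccagtatGTAGAAacacatggagaa
PRDX4 codons 217 and 218 (chrX:23700553-23700579, plus strand, exon 5): attactctgAATGATcttcctgtgggt
PRDX6 codons 139 and 140 (chr1:173455400-173455426, plus strand, exon 4): gtttttggtCCTGATaagaagctgaag
CAT codons 177 and 178 (chr11:34474676-34474702, plus strand, exon 5): acacatctgAAGGATccggacatggtc
TXN codons 12 and 13 (chr9:113013716-113013742, minus strand, exon 2): actgcttttCAGGAAgccttggacgct
TXN codons 61 and 62 (chr9:113007115-113013117, minus strand, across the junction of exons 3 and 4): gatgtggatGACTGTcaggatgttgct
PRDX5 codons 131 and 132 (chr11:64088208-64088234, plus strand, exon 3): gttaatgatGCCTTTgtgactggcgag
The highest codons lay at different depths of the CDS, from codon 12 in TXN to codon 222 in PRDX3. In TXN the choice turned on the CDS ends, since codon 12 reached 11.5 times the CDS mean and codon 61 reached 10.3 times. The peak of CAT, at codon 177, reached 18.7 times its mean in a profile of about 3366 reads. PRDX3 had a peak of 17.4 times its mean at codon 222 and another of 15.7 times at codon 80. PRDX5 reached 14.8 times its mean at codon 131 and 9.01 times at the codon after it.

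The typical 2-Cys peroxiredoxins could be laid over each other codon by codon. PRDX1 and PRDX2 were 72.6% identical in bases over 198 aligned codons, and 6 of the 20 highest codons of each stood at the same aligned position. The other pairs were less alike in bases, between 57.9% in PRDX3 and PRDX4 and 65.3% in PRDX1 and PRDX4. They shared 8 of 20 in PRDX1 and PRDX4, 7 in PRDX3 and PRDX4, 5 in PRDX1 and PRDX3, 2 in PRDX2 and PRDX4 and 1 in PRDX2 and PRDX3, so the number shared did not follow the identity of the pair. How many positions a pair would share by chance was not tested. The 6 positions that PRDX1 and PRDX2, the most alike in bases, share are given here. At codon 34 of PRDX1 and codon 33 of PRDX2 the same codons, TAC followed by AAA, had 6.79 and 10.7 times the CDS mean. At codon 71 of PRDX1 and codon 70 of PRDX2, both cysteine codons, the values were 6.15 and 21.7 times the mean. There the next codon was CAA in PRDX1 and GAA in PRDX2, and the PRDX2 value was the highest of its CDS. The highest codon of PRDX1, 64, is GAA before GAA and reached 10.5 times the mean, and the aligned codon 63 of PRDX2, GAG before GAC, reached 6.56 times. Codon 70 of PRDX1 (AAC) and codon 69 of PRDX2 (GGC) had 2.91 and 7.72 times the mean. Codon 190 of PRDX1 (AAG) and 189 of PRDX2 (GAC), both before AGC, had 4.75 and 8.13 times, and the AGC codons after them had 2.92 and 4.93 times. Of these 6 positions, only codons 34 and 33 had both the same codon and the same next codon. The 2 profiles come from the same libraries, and both mRNAs share stretches with pseudogenes but not with each other.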

How the data were processed

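Per the labels, HEK293 lysates were digested with RNase I for the RPF libraries or kept for total RNA, and rRNA was depleted. The submitters' processing notes list cutadapt 1.16, Bowtie 1.1.2, TopHat2 2.1.1 and HTSeq 0.9.1 with build hg19. The study's methods name a different aligner for total RNA, and which one made the values is not settled. RPFs of 28 to 30 nt were kept after UMI deduplication. The authors deposited TE per gene and replicate as a linear ratio of RPF to total RNA, and occupancy signal per codon on 1 transcript per gene (RPFs over TPM), with replicates combined. The table names its columns by replicate number only. They were taken as the RPF over the total RNA library of that number, which is an assumption, as no source states the formula. The study's methods state mapped RPF totals per replicate, which were not used here, and the reads behind each gene's TE are unknown.

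TE was tested as log2(TE + 0.01) minus the median of all values with limma 3.58.1 (R 4.3.3), without a filter, at an adjusted p of 0.05. A pseudocount understates differences of low genes. Read numbers were recovered in Python 3.11.15 from the 3 steps in the low values of each transcript, which succeeded for 99.6% of 9570. They are exact only for low values and otherwise assume equal occupancy in the replicates. In 31 transcripts, none of them a member, a value at a line break was left out. For 8641 transcripts (90.3%) symbol and CDS length matched 1 GENCODE CDS sequence, and the SOD2 start was taken from the canonical transcript. All 10 members and, from each redox list, at most the 3 highest and 3 lowest TE values could be named. The members and lists were chosen with earlier results of these data known. Alternatives were another pseudocount, reference, filter and variance model, a replicate block, leaving out each replicate, and other windows. The SOD1 sequences are not reported here.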

Additional observations from a re-analysis of the deposited data

How the results depend on the processing

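The counts of called antioxidant enzyme genes held under most alternatives. The number called lower rose from 1 to 2 where only genes with a mean TE of 0.1 or more were kept, and also where the reference was the mean of log2 values, because SOD2 joined PRDX5. The reference was then 0.14 and 0.17 higher on the log2 scale, and SOD2 stood at -0.16 (limma adjusted p = 0.0215) and -0.19 (limma adjusted p = 0.0126), where it had been at -0.02. The number called higher was 8 under all 8 alternatives. With a replicate block, in which the median of each replicate was removed, 9 of the 10 were called, as without it, and 7265 of all genes in place of 7249. Each TE was assumed to pair the RPF and total RNA libraries of its number, and the block changed no call of a member. Leaving out each replicate in turn gave 9 called members each time and 7015 to 7091 called genes, and the log2 difference of PRDX5 ran from -0.38 to -0.28 (limma adjusted p between 0.0104 and 0.0140). Among the 63 redox genes, 51 to 54 were called under the alternatives that kept all of them, with 24 to 27 higher and 26 to 30 lower. With only genes of a mean TE of 0.1 or more, 50 of the remaining 61 were called.

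Occupancy values had no replicate error, and a change over 1.5 times was counted as a move. The median over codons was below the mean in all 9 mRNAs, at 0.0613 in PRDX1, 0.0514 in TXN, 0.0378 in SOD1, 0.0264 in PRDX3, 0.0228 in PRDX6, 0.0190 in PRDX2, 0.0123 in PRDX4, 0.0111 in CAT and 0.00329 in PRDX5, which puts PRDX1 above TXN. Windows of 30 codons gave start to end ratios of 0.471 in PRDX1, 3.46 in TXN and 0.191 in CAT beside those in the text, and medians gave 0 in PRDX5. As a fraction of the CDS, the last 17 codons of the 5′UTR stood at 0.107 in PRDX1, 0.0498 in PRDX2, 0.0447 in TXN and 0.00835 in PRDX5. Without the 5 codons next to the start codon the fraction was 0.0139 in PRDX1, 0.0563 in PRDX4 and 0.00337 in PRDX6. Read depth limits the profiles of CAT and PRDX5, and the 5′UTR values of PRDX5, CAT and PRDX6, which rest on about 2, 5 and 10 reads.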
